A study of Mus musculus with 12 samples.

Results

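The genes described here are 33 enzymes, regulators and transporters of glycolysis and glycogen metabolism, followed in mouse muscle cells in which the myogenic factor myogenin (Myog) was induced, p38 MAP kinase was inhibited, or both. They were taken by name, each from the transcript cluster (the set of array probes for a transcript) that is annotated to exactly 1 gene symbol, and from the cluster with the highest mean over the 12 arrays where a gene had several; array numbers below are the replicate numbers of the labels. Of the 33 genes, 30 had such a cluster, out of 19938 genes on the array that did. Gapdh had 25 clusters, all of which carried several symbols, and Gpi1 and Eno1 had 0 clusters under their names, so these 3 genes were not measured by this rule.

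All samples came from C2i-Myog, a stable derivative of the C2C12 mouse myoblast line that makes Flag-tagged mouse Myog when doxycycline is added. Per the submitters' protocol, cells near confluence were moved from 10% serum to 1% horse serum with 10 µg/mL insulin and 10 µg/mL transferrin for 48 h, which makes myoblasts differentiate. There were 4 groups of 3 arrays each: control without further addition, Dox with 0.2 µg/mL doxycycline, SB with 10 µM of the p38α and p38β inhibitor SB203580, and SB+Dox with both agents. The control label itself names no differentiation, and these arrays were placed at 48 h because the protocol is given with every sample. All 4 groups carried the transgene and insulin, and no cells without the transgene received doxycycline, so the effects of the drug and of exogenous Myog cannot be told apart. The line is described as stable, and the sources used here do not say whether it is 1 clone or if each replicate had its own culture. The p-values thus reflect the spread among these arrays alone, and that spread may be technical.

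Glycolysis splits glucose into pyruvate in the cytosol. Hexokinase traps glucose in the cell, phosphofructokinase is the main regulated step, and lactate dehydrogenase turns pyruvate into lactate when it does not enter mitochondria. Muscle also stores glucose as glycogen: glycogen synthase and the branching enzyme build it, and glycogen phosphorylase, switched on by phosphorylase kinase, breaks it down to feed contraction. Several steps have a form enriched in skeletal muscle (Pygm, Pgam2, Eno3 and Pfkm) beside forms found in many tissues, and muscle differentiation is known to shift cells toward the former.

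The values are log2 RMA signals, and array medians lay between 4.86 and 5.06. Replicates correlated over the tested clusters at 0.989 or more in all 4 groups. Muscle identity was plain: of 14 myotube markers, 12 (control), 14 (Dox), 12 (SB) and 13 (SB+Dox) lay above 5.32, the median level of all genes. The mean level of these markers was 9.45 to 9.75 over the control arrays, 9.74 to 10.06 over Dox, 8.22 to 8.97 over SB and 9.49 to 9.84 over SB+Dox, so SB arrays lay below all others and SB replicate 1 was the lowest for Myog, Ckm, Acta1 and Casq2. Of the measured markers, 0 of 5 for adipocytes and at most 1 of 3 for osteoblasts lay above that median in any group, and 0 of 4 liver forms of glycolytic and glycogen enzymes did. Myog itself measured 9.66, 10.18 and 9.89 on the control arrays, 10.39, 10.3 and 10.4 on the Dox arrays, 6.93, 7.96 and 8.21 on the SB arrays and 8.1, 8.23 and 8.68 on the SB+Dox arrays. No source used here gives the place of its probes relative to the transgene.

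Most member calls lay in the comparisons that involve the Dox arrays. A call means an adjusted p under 0.05 from limma with Benjamini-Hochberg adjustment over all tested clusters, with all 12 arrays in 1 fit. In SB+Dox against Dox, 12 of 30 members were higher (40%) and 1 was lower, against 7.19% of all genes higher and 3.55% lower. In Dox against control, 6 members were lower (20%) and 1 was higher, against 4.01% of all genes lower, 1.49% higher and 5.5% in either direction. Both comparisons use the same 3 Dox arrays, so their calls are not independent. In SB+Dox against SB, 5 members were higher (16.7%) and 0 were lower, where 4.54% of all genes were higher and 2.81% lower (11 members had an unadjusted p under 0.05). In SB against control, 1 member was higher and 2 were lower, against 2.59% and 4.06% of all genes, a share near the background. For SB+Dox against control, 2 members were higher and 0 lower, where 2.88% of all genes were higher, 2.53% lower and 5.41% either (12 members had an unadjusted p under 0.05). The interaction, which subtracts the doxycycline change seen without inhibitor from the one seen with it, was called for 1 member, which was higher, against 0.762% of all genes higher and 0.938% in either direction. Altogether 15 of the 30 members were called in at least 1 of the 6 comparisons. The shares over all genes were not matched for signal level, and most members were brighter than the median gene. The median member change was 0.21 in SB+Dox against Dox and -0.12 in Dox against control, against medians of -0.027 and 0.004 over all genes.

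Some of these counts rest on particular arrays. In Dox against control the count of 7 was 4 without control replicate 1, control replicate 2 or Dox replicate 3. The SB against control count of 3 was 1 without control replicate 1, control replicate 2 or SB replicate 2, and without SB replicate 1 all 3 calls were lost while Pgam2 and Gbe1 were called. The 5 calls of SB+Dox against SB became 3 without SB replicate 1 or SB+Dox replicate 3, and 9 without SB replicate 3. The 2 calls of SB+Dox against control became 1 without control replicate 1, 2 or 3 or without SB+Dox replicate 3. The interaction count of 1 was 2 without SB+Dox replicate 1. These are bulk RNA measurements, so fewer cells of a kind and less RNA per cell cannot be told apart.

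**Figure D1:**
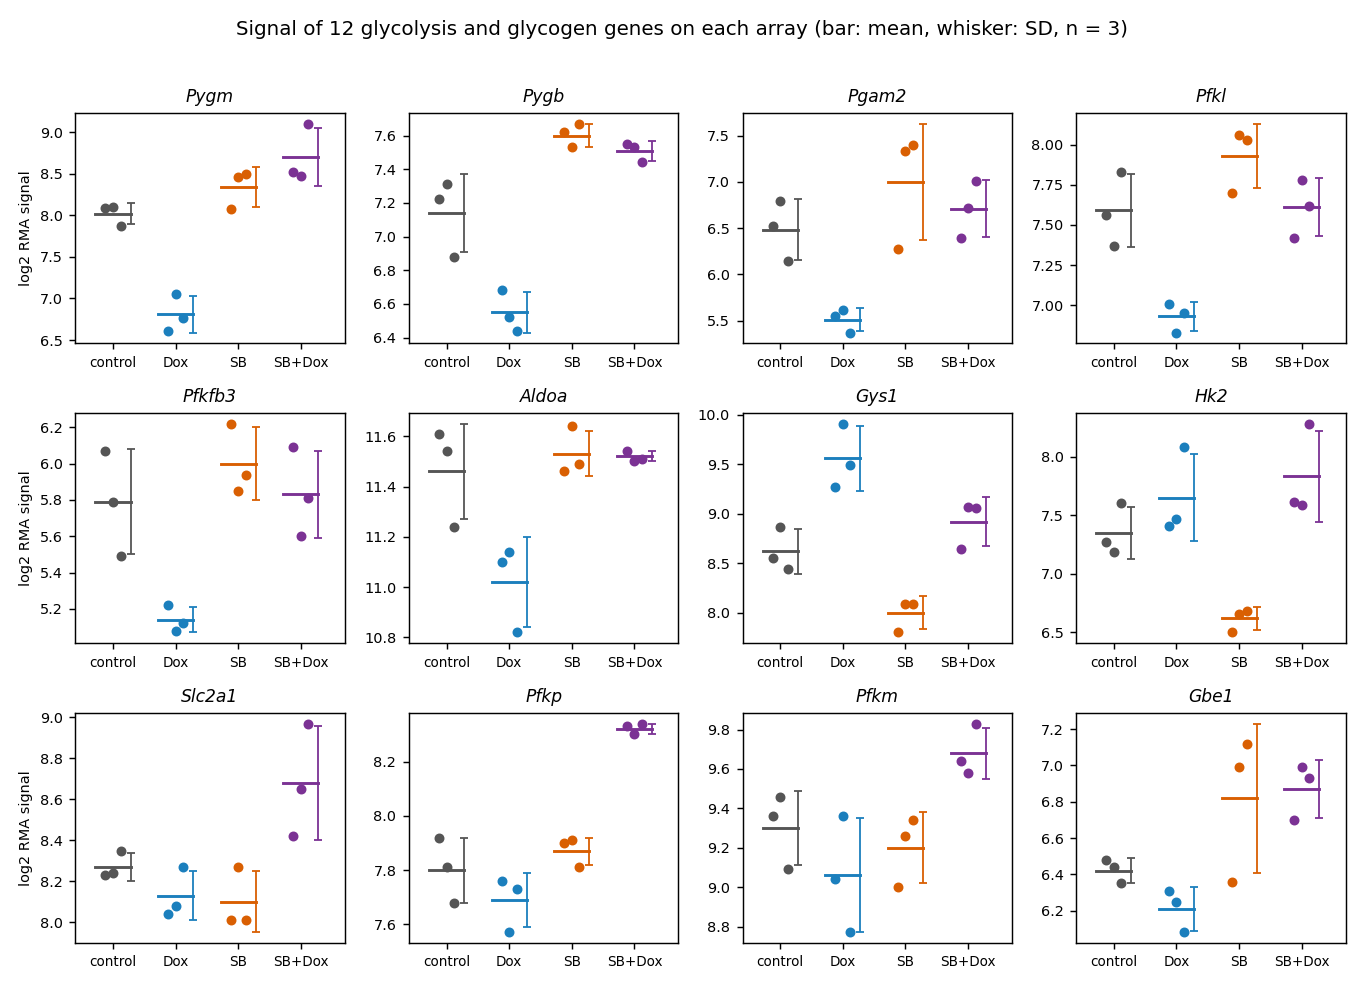
Log2 RMA signal (vertical axis, scaled per gene) of 12 genes in the control, Dox, SB and SB+Dox groups (horizontal axis), with a point per array in the order of replicates 1 to 3, a bar at the mean and a whisker of 1 SD (n = 3). For Pygm, Pygb, Pgam2, Pfkl, Pfkfb3, Aldoa and, narrowly, Gbe1 the 3 Dox arrays lie below the other 9. For Gys1 they lie above the other 9. The share of all genes with either order was not counted.

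Glycogen breakdown carried the largest change. Pygm, the muscle glycogen phosphorylase, measured 8.09, 8.1 and 7.87 on the control arrays, 6.61, 7.05 and 6.76 on the Dox arrays, 8.07, 8.46 and 8.5 on the SB arrays and 8.52, 8.47 and 9.1 on the SB+Dox arrays. The 3 Dox arrays were the lowest of the 12, by more than 0.8 from the nearest other array. Pygm fell by 1.21 on the log2 scale in Dox against control (SE 0.17, 2.31-fold lower, adjusted p = 0.000491) and was 3.71-fold higher in SB+Dox compared with Dox (a log2 change of 1.89, SE 0.17, adjusted p = 4.73e-06). With the inhibitor present, the doxycycline change was 0.35 (95% confidence interval -0.01 to 0.71, adjusted p = 0.249), and the difference between the doxycycline changes with and without inhibitor was itself called (interaction 1.56, SE 0.24, adjusted p = 0.0122). SB alone gave a change of 0.33 (interval -0.03 to 0.69, adjusted p = 0.353). Pygm was also higher in SB+Dox than in control, by 0.68 (SE 0.17, adjusted p = 0.0289), a call that did not hold without control array 1 (adjusted p = 0.0649), control array 2 (0.0615), control array 3 (0.122) or SB+Dox array 3 (0.132).

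Pygb, the phosphorylase named for brain and made in many tissues, had the same order of Dox against the rest on a smaller scale. It measured 7.22, 7.31 and 6.88 on the control arrays, 6.68, 6.52 and 6.44 on the Dox arrays, 7.62, 7.53 and 7.67 on the SB arrays and 7.55, 7.53 and 7.44 on the SB+Dox arrays. The Dox arrays were again below the other 9, and the 6 arrays with SB203580 were above the other 6. Pygb fell by 0.59 in Dox against control (SE 0.11, adjusted p = 0.00441) and was 1.95-fold higher in SB+Dox compared with Dox (a log2 change of 0.96, SE 0.11, adjusted p = 5.1e-05). It was the only member called higher in SB against control (0.47, SE 0.11, adjusted p = 0.0201), a call that did not hold without control array 3 (adjusted p = 0.0734), without SB array 1 (0.0595) and with each array centred on its median (0.0647). A fit of only the 2 groups compared also lost that call (0.0705). The interaction of Pygb was 0.49 (adjusted p = 0.199). Pygl, the liver phosphorylase, lay between 3.31 and 3.63 on all arrays and was not called in any of the 6 comparisons.

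Phosphorylase kinase activates the phosphorylases and has α, β and γ subunits beside calmodulin. Phka1, the muscle α subunit, measured 7.17, 7.13 and 7.03 on the control arrays, 6.89, 6.87 and 6.91 on the Dox arrays, 7.24, 7.35 and 7.57 on the SB arrays and 7.19, 7.34 and 7.22 on the SB+Dox arrays. The Dox arrays were the 3 lowest. Phka1 was higher in SB+Dox compared with Dox by 0.36 (SE 0.10, adjusted p = 0.0248). That call was lost without Dox array 1 (adjusted p = 0.0674), Dox array 2 (0.0757), Dox array 3 (0.0653), SB+Dox array 2 (0.117) or SB+Dox array 3 (0.0592). Phkb, the β subunit, had a change of 0.45 in SB+Dox against SB (SE 0.13, adjusted p = 0.0556), which passed when replicate number was a block in the fit (adjusted p = 0.0329), without SB array 3 (0.0157) or SB+Dox array 1 (0.0405). Phkg1, the muscle γ subunit, lay between 3.43 and 3.85, well under the median of all genes, and had 0 calls.

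Gys1, the glycogen synthase of muscle, moved the other way from the phosphorylases in Dox against control. It measured 8.55, 8.87 and 8.44 on the control arrays, 9.27, 9.91 and 9.49 on the Dox arrays, 7.8, 8.09 and 8.09 on the SB arrays and 8.64, 9.07 and 9.06 on the SB+Dox arrays. All 3 Dox arrays were above the other 9 and all 3 SB arrays below the other 9. Gys1 was 1.92-fold higher in Dox than in control (a log2 change of 0.94, SE 0.17, adjusted p = 0.00302) and 1.9-fold higher in SB+Dox compared with SB (a log2 change of 0.93, SE 0.17, adjusted p = 0.00364). These 2 comparisons share no array, and the interaction was -0.01 with an interval of -0.52 to 0.49 (adjusted p = 0.99). SB203580 lowered it by a like amount with and without doxycycline: it fell by 0.62 in SB against control (SE 0.17, adjusted p = 0.038) and by 0.63 in SB+Dox against Dox (SE 0.17, adjusted p = 0.0233).

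Both decreases of Gys1 with the inhibitor were close to the threshold. The first was lost without control array 1 (adjusted p = 0.0779), control array 2 (0.175), SB array 1 (0.152) or SB array 2 (0.0834), and after quantile normalisation (0.0541). The second was lost without Dox array 2 (adjusted p = 0.116), Dox array 3 (0.0539) or SB+Dox array 1 (0.117). Gys1 was lowest in SB and highest in Dox, as was the mean level of the myotube markers given above, and the part of those markers in the result was not tested. SB+Dox against control was 0.31 (interval -0.05 to 0.66, adjusted p = 0.418).

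The within-array difference of Gys1 minus Pygm, chosen after their values were seen and given without a test, averaged 0.60 ± 0.16 for control, 2.75 ± 0.10 for Dox, -0.35 ± 0.07 for SB and 0.23 ± 0.33 for SB+Dox (log2, SD, n = 3). Probe sets differ in brightness, so only the shifts between groups can be read. The 3 Dox arrays, at 2.66, 2.86 and 2.74, stood far above the other 9, which ran from -0.41 to 0.77.

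The other 2 measured genes of glycogen synthesis had 1 call each. Gbe1, the branching enzyme, measured 6.48, 6.44 and 6.35 on the control arrays, 6.31, 6.25 and 6.08 on the Dox arrays, 6.36, 6.99 and 7.12 on the SB arrays and 6.7, 6.99 and 6.93 on the SB+Dox arrays. SB replicate 1 lay with the control arrays, apart from SB replicates 2 and 3, and the Dox arrays lay narrowly under all others. Even so, Dox against control was not called (-0.21, adjusted p = 0.683). Gbe1 was 1.58-fold higher in SB+Dox compared with Dox (a log2 change of 0.66, SE 0.16, adjusted p = 0.0124), which was lost without Dox array 3 (adjusted p = 0.0639) or SB+Dox array 2 (0.0616). The inhibitor alone gave a change of 0.40 (adjusted p = 0.183), or 0.64 with adjusted p = 0.00635 without SB replicate 1. Ugp2, which makes the UDP-glucose that glycogen synthase uses, was higher in SB+Dox than in SB by 0.42 (SE 0.12, adjusted p = 0.0497), at 6.92, 7.0 and 7.15 against 6.39, 6.57 and 6.86. That call sat at the threshold and was lost when any array but Dox replicate 3 or SB replicate 3 was left out, with adjusted p up to 0.217 without SB+Dox replicate 3. Quantile normalisation (0.0571) and a fit of only the 2 groups compared (0.115) also lost it.

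The promoter windows of 4 of these genes are printed because their calls went in opposite directions in Dox against control (Pygm, Pgam2 and Pygb lower, Gys1 higher) and because myogenic bHLH factors such as Myog bind the E-box. Each window runs from 250 bases before to 50 after the annotated start, 5′ to 3′ along the gene's own strand, from RefSeq on GRCm38.p6, and 32 of the 33 genes had a window. Capitals mark every E-box, CANNTG, which reads the same on both strands.
Pygm (chr19:6384158-6384457, plus strand): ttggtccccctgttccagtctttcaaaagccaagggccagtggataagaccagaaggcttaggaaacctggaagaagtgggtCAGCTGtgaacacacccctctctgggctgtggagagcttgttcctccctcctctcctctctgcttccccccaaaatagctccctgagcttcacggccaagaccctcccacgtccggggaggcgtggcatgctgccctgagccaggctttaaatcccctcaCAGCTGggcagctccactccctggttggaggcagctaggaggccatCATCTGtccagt
Pgam2 (chr11:5803747-5804046, minus strand): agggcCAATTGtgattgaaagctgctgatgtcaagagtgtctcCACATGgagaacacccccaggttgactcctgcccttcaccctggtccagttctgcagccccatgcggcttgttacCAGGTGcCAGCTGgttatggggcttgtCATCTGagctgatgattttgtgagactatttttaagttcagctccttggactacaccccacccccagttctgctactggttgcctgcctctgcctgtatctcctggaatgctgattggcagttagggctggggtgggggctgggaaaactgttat
Pygb (chr2:150786546-150786845, plus strand): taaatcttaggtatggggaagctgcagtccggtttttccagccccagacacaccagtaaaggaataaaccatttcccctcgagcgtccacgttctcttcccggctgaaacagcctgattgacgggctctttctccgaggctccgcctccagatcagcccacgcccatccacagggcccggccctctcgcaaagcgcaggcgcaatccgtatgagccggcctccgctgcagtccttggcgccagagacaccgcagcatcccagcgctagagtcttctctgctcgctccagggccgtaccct
Gys1 (chr7:45434589-45434888, plus strand): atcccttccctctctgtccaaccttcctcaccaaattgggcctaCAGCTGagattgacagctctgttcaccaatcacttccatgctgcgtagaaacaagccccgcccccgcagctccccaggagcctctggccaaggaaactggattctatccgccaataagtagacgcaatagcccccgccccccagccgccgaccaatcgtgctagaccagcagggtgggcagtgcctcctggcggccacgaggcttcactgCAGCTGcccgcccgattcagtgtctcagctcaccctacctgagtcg

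By script, CANNTG occurred 3 times in the Pygm window, 5 times in Pgam2, 0 times in Pygb and 2 times in Gys1, and 72.3% of all 32851 windows of this length held at least 1. The form CAGCTG, a subset of CANNTG that also reads the same on both strands, occurred 2 times in Pygm, with first bases at -168 and -8 from the start site, 1 time in Pgam2, at -125, and 2 times in Gys1, at -206 and 4. It was in 16.3% of all windows and was not in the Pygb window. MEF2 sites were searched in 1 strict form, CTA then 4 letters A or T then TAG, and looser forms were not counted. That form was in 0 of the 4 windows and in 0.557% of all. The Pgam2 window holds CTATTTTTAA, which differs from it in the last letter only. ACGTG, the core bound by hypoxia-inducible factors, was found on either strand 1 time each in Pygm and Pygb and in 19.6% of all windows. CAGCTG was thus in windows of genes that fell and of a gene that rose with doxycycline. A match describes letters only, and no binding was measured here.

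At glucose entry, 2 of 4 members (Hk2 and Slc2a1) were called, both of them higher in SB+Dox against SB, where 4.54% of all genes were higher. Hk2, the insulin-responsive hexokinase of muscle and fat, measured 7.27, 7.19 and 7.6 on the control arrays, 7.41, 7.47 and 8.08 on the Dox arrays, 6.5, 6.66 and 6.68 on the SB arrays and 7.61, 7.59 and 8.28 on the SB+Dox arrays. The SB arrays were the 3 lowest, and replicate 3 was the highest array in each group. Hk2 was 2.31-fold higher in SB+Dox compared with SB (a log2 change of 1.21, SE 0.19, adjusted p = 0.00176) and kept that call in all 22 alternatives. It fell by 0.74 in SB against control (SE 0.19, adjusted p = 0.0341), a call that did not hold without control array 1 (adjusted p = 0.0727), control array 2 (0.0513), control array 3 (0.142), SB array 1 (0.119) or SB array 2 (0.0939). Without the inhibitor the doxycycline change of Hk2 was 0.30 (interval -0.11 to 0.72, adjusted p = 0.583). The interaction was 0.91 (adjusted p = 0.175), and SB+Dox against control was 0.47 (adjusted p = 0.23). Both passed when replicate number was a block in the fit (0.0158 and 0.0318), though only SB and SB+Dox met the rule of the pairing check.

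Slc2a1, the glucose transporter GLUT1, measured 8.23, 8.24 and 8.35 on the control arrays, 8.04, 8.08 and 8.27 on the Dox arrays, 8.01, 8.27 and 8.01 on the SB arrays and 8.42, 8.65 and 8.97 on the SB+Dox arrays. Only the SB+Dox arrays stood apart, all above the other 9. It was 1.5-fold higher than in SB (a log2 change of 0.58, SE 0.13, adjusted p = 0.0119) and 1.47-fold higher than in Dox (a log2 change of 0.55, SE 0.13, adjusted p = 0.0107). The first call was lost without SB array 1 (adjusted p = 0.0535) or with only the 2 groups compared (0.0529). Without SB+Dox replicate 3 both were lost (0.0698 and 0.0559). Against control the change was 0.41 (adjusted p = 0.0933), and it passed without SB+Dox array 1 (0.0321). Slc2a4, the insulin-responsive transporter GLUT4, lay between 4.88 and 5.22 on all 12 arrays, under the median of all genes, and had 0 calls.

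Hk1, the hexokinase of most tissues, had 2 clusters that disagreed. The brighter, used under the rule, rests on 1 accession and lay between 11.07 and 11.39 with 0 calls. The other rests on 8 accessions and measured 8.54, 8.38 and 7.94 on the control arrays, 7.98, 8.09 and 7.55 on the Dox arrays, 8.73, 8.53 and 8.49 on the SB arrays and 8.45, 8.64 and 8.27 on the SB+Dox arrays. On that cluster Hk1 was higher in SB+Dox compared with Dox by 0.58 (SE 0.16, adjusted p = 0.0328). Which of the 2 clusters reads Hk1 was not settled by the files. The member counts and the pair of Hk2 and Hk1 rest on the brighter one. With the dimmest cluster of each gene, 13 members instead of 12 were higher in SB+Dox against Dox.

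All 4 measured genes of the phosphofructokinase step were higher in SB+Dox compared with Dox, where 7.19% of all genes were, and they differed in the other comparisons. Pfkl, the liver-type subunit, measured 7.56, 7.37 and 7.83 on the control arrays, 7.01, 6.83 and 6.95 on the Dox arrays, 7.7, 8.06 and 8.03 on the SB arrays and 7.42, 7.78 and 7.62 on the SB+Dox arrays. The Dox arrays were the 3 lowest. Pfkl fell by 0.66 in Dox against control (SE 0.13, adjusted p = 0.00818) and was 1.6-fold higher in SB+Dox compared with Dox (a log2 change of 0.68, SE 0.13, adjusted p = 0.00365). Both calls held in all 22 alternatives.

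Pfkfb3, whose product makes the allosteric activator fructose 2,6-bisphosphate, followed the same order of groups as Pfkl. It measured 6.07, 5.79 and 5.49 on the control arrays, 5.22, 5.08 and 5.12 on the Dox arrays, 6.22, 5.85 and 5.94 on the SB arrays and 6.09, 5.6 and 5.81 on the SB+Dox arrays. The Dox arrays were the lowest and lay under the median of all genes, and no background level was measured, so the true fold may be larger. Pfkfb3 was 1.62-fold higher in SB+Dox compared with Dox (a log2 change of 0.69, SE 0.15, adjusted p = 0.00717) and fell by 0.64 in Dox against control (SE 0.15, adjusted p = 0.0198). The latter call was lost without control array 1 (adjusted p = 0.116), control array 2 (0.0634), Dox array 2 (0.0767) or Dox array 3 (0.0752).

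Pfkp, the platelet-type subunit, measured 7.92, 7.81 and 7.68 on the control arrays, 7.76, 7.57 and 7.73 on the Dox arrays, 7.9, 7.91 and 7.81 on the SB arrays and 8.33, 8.3 and 8.34 on the SB+Dox arrays. The SB+Dox arrays lay within 0.04 of each other and above all other arrays. Pfkp was higher in SB+Dox compared with Dox by 0.64, than in control by 0.52 and than in SB by 0.45 (SE 0.09 each, adjusted p = 0.000303, 0.00317 and 0.00731), and the 3 calls held in all 22 alternatives. The interaction was 0.56 (adjusted p = 0.058) and passed in 6 of the other settings.

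Pfkm, the muscle subunit, measured 9.36, 9.46 and 9.09 on the control arrays, 9.04, 9.36 and 8.77 on the Dox arrays, 9.0, 9.26 and 9.34 on the SB arrays and 9.64, 9.58 and 9.83 on the SB+Dox arrays. The SB+Dox arrays were the 3 highest and the other groups overlapped. Pfkm was 1.54-fold higher in SB+Dox compared with Dox (a log2 change of 0.63, SE 0.15, adjusted p = 0.0112), lost without Dox array 3 (adjusted p = 0.0683) or SB+Dox array 3 (0.056). Against SB the change was 0.48 (SE 0.15, adjusted p = 0.0632), and it passed without Dox array 2 (0.0371), Dox array 3 (0.0419) or SB array 3 (0.0415).

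**Figure D2:**
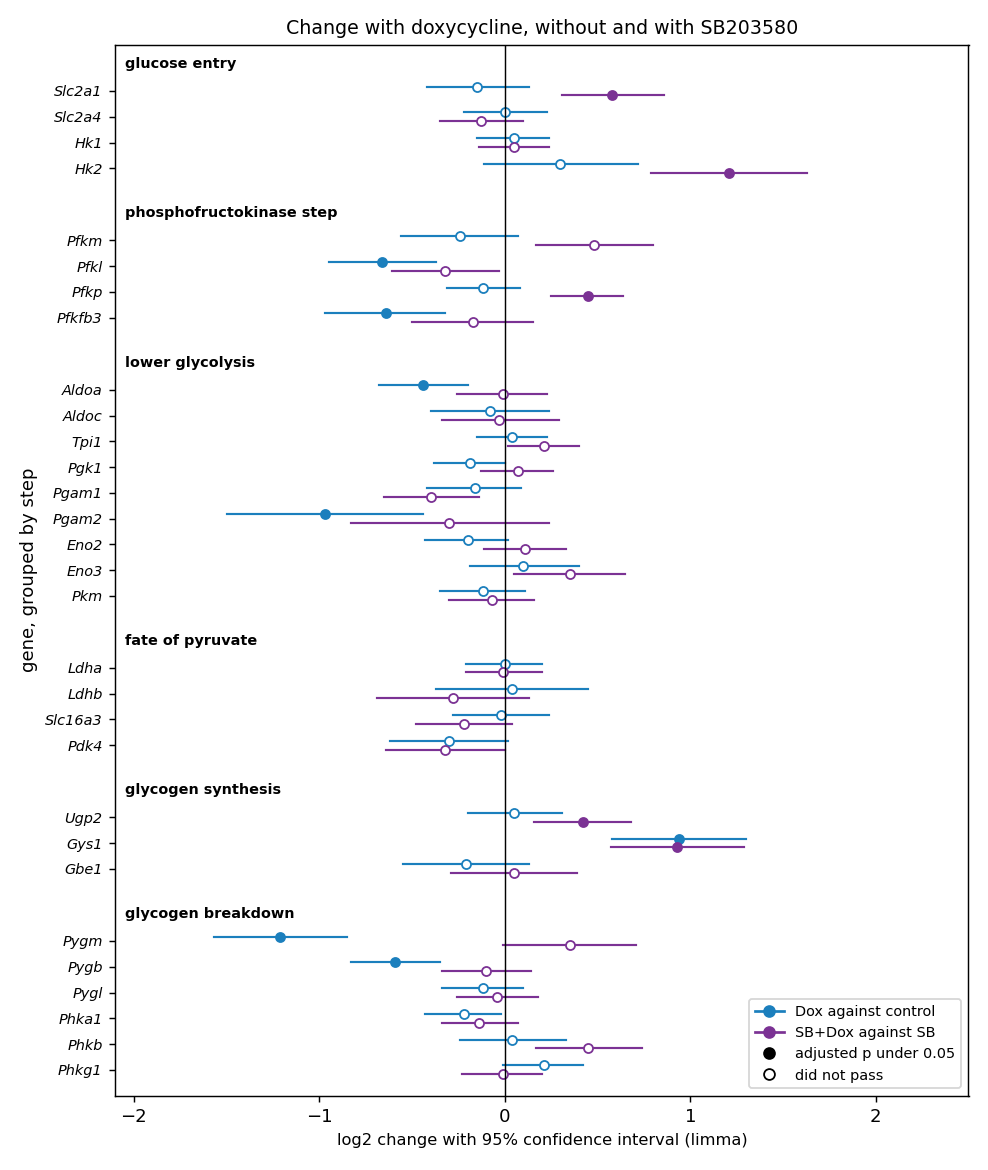
Log2 change with doxycycline (horizontal axis) for each of the 30 measured genes (vertical axis, grouped by step), without the inhibitor (Dox against control) and with it (SB+Dox against SB); lines are 95% confidence intervals and filled points passed the test. Pygm lies at -1.21 without the inhibitor and 0.35 with it, while Gys1 lies at 0.94 and 0.93.

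In lower glycolysis 3 of 9 members were called in SB+Dox against Dox, all higher, and 2 of them in Dox against control, both lower. Over all genes 7.19% were higher in the former comparison and 4.01% lower in the latter. Pgam2, the muscle phosphoglycerate mutase, measured 6.52, 6.79 and 6.14 on the control arrays, 5.55, 5.61 and 5.37 on the Dox arrays, 6.27, 7.33 and 7.4 on the SB arrays and 6.39, 6.72 and 7.01 on the SB+Dox arrays. The Dox arrays were the 3 lowest, and SB replicate 1 lay more than 1.0 under the other 2 SB arrays. Pgam2 was 2.29-fold higher in SB+Dox compared with Dox (a log2 change of 1.19, SE 0.25, adjusted p = 0.0052) and held that call in all 22 alternatives. It fell by 0.97 in Dox against control (SE 0.25, adjusted p = 0.0327), lost without control array 1 (adjusted p = 0.106), control array 2 (0.146) or any 1 of Dox replicates 1, 2 and 3 (0.0785, 0.0719 and 0.135). An eBayes trend and robust fit also lost that call (0.0572). The inhibitor alone gave a change of 0.52 (adjusted p = 0.307), or 0.88 with adjusted p = 0.0153 without SB replicate 1.

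Aldoa, the aldolase of muscle and most other tissues, measured 11.61, 11.54 and 11.24 on the control arrays, 11.1, 11.14 and 10.82 on the Dox arrays, 11.46, 11.64 and 11.49 on the SB arrays and 11.54, 11.5 and 11.51 on the SB+Dox arrays. The Dox arrays were the 3 lowest. Aldoa was 1.41-fold higher in SB+Dox compared with Dox (a log2 change of 0.50, SE 0.11, adjusted p = 0.00914), lost without Dox array 3 (adjusted p = 0.0573). It fell by 0.44 in Dox against control (SE 0.11, adjusted p = 0.0325), lost without control array 1 (adjusted p = 0.175), control array 2 (0.123), Dox array 1 (0.0512) or Dox array 3 (0.177). A fit of only the 2 groups compared also lost that call (0.0888). Pgk1, phosphoglycerate kinase, was higher in SB+Dox compared with Dox by 0.40 (SE 0.09, adjusted p = 0.00854), at 10.9, 10.92 and 10.83 against 10.53, 10.41 and 10.51. It has 3 clusters, of which 2 hold identical values and the other differs by at most 0.053, so reads from near-identical copies cannot be separated.

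Eno3, the muscle enolase, was not called in any of the 6 comparisons. It measured 10.58, 10.57 and 10.13 on the control arrays, 10.61, 10.63 and 10.36 on the Dox arrays, 9.78, 10.22 and 10.17 on the SB arrays and 10.34, 10.41 and 10.48 on the SB+Dox arrays. The inhibitor alone gave a change of -0.37 (interval -0.67 to -0.07, adjusted p = 0.161), which passed without control array 3 (-0.52, adjusted p = 0.0404), and in Dox against control it was 0.10 (interval -0.19 to 0.40). Eno2, the enolase of neurons, measured 6.68, 6.64 and 6.71 on the control arrays, 6.42, 6.38 and 6.62 on the Dox arrays, 6.67, 6.6 and 6.78 on the SB arrays and 6.77, 6.64 and 6.98 on the SB+Dox arrays. All 3 Dox arrays lay below the control and SB+Dox arrays and overlapped with SB. It had a change of 0.32 in SB+Dox against Dox (SE 0.10, adjusted p = 0.0626), past the threshold without Dox array 3 (0.0474) or SB+Dox array 2 (0.0437). Pgam1, the mutase of most tissues, measured 8.88, 8.87 and 8.92 on the control arrays, 8.82, 8.78 and 8.58 on the Dox arrays, 8.9, 9.18 and 8.91 on the SB arrays and 8.58, 8.83 and 8.38 on the SB+Dox arrays. Its SB+Dox arrays lay below all control and SB arrays and overlapped with Dox. It had a change of -0.40 in SB+Dox against SB (SE 0.12, adjusted p = 0.06). Pgam1 has 3 clusters, and the dimmer ones, identical to each other, gave -0.34 (adjusted p = 0.0871). On the brightest cluster the change passed when replicate number was a block in the fit (adjusted p = 0.0298), without SB array 3 (0.046) or SB+Dox array 2 (0.0231). Tpi1, triose phosphate isomerase, had a change of 0.29 in SB+Dox against control (adjusted p = 0.0855). Pkm, the muscle and general pyruvate kinase gene, spanned 10.65 to 11.05 over the 12 arrays, and Aldoc 4.56 to 5.29, with 0 calls each.

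Genes that set the fate of pyruvate had 0 calls of 4 in each of the 6 comparisons. Of all genes, 0.938% (interaction) to 10.7% (SB+Dox against Dox) were called. Ldha, the lactate dehydrogenase subunit that predominates in fast muscle, spanned 10.58 to 10.92, and its change in Dox against control was 0.00 with an interval of -0.21 to 0.20. Ldhb spanned 4.67 to 5.76 with its highest value in SB replicate 2, and Slc16a3, the lactate exporter MCT4, spanned 5.05 to 5.6. Pdk4, a kinase that shuts the pyruvate dehydrogenase complex, spanned 5.68 to 6.48, with changes of -0.30 in Dox against control (interval -0.62 to 0.02, adjusted p = 0.389) and -0.32 in SB+Dox against SB (interval -0.64 to 0.00, adjusted p = 0.239).

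**Figure D3:**
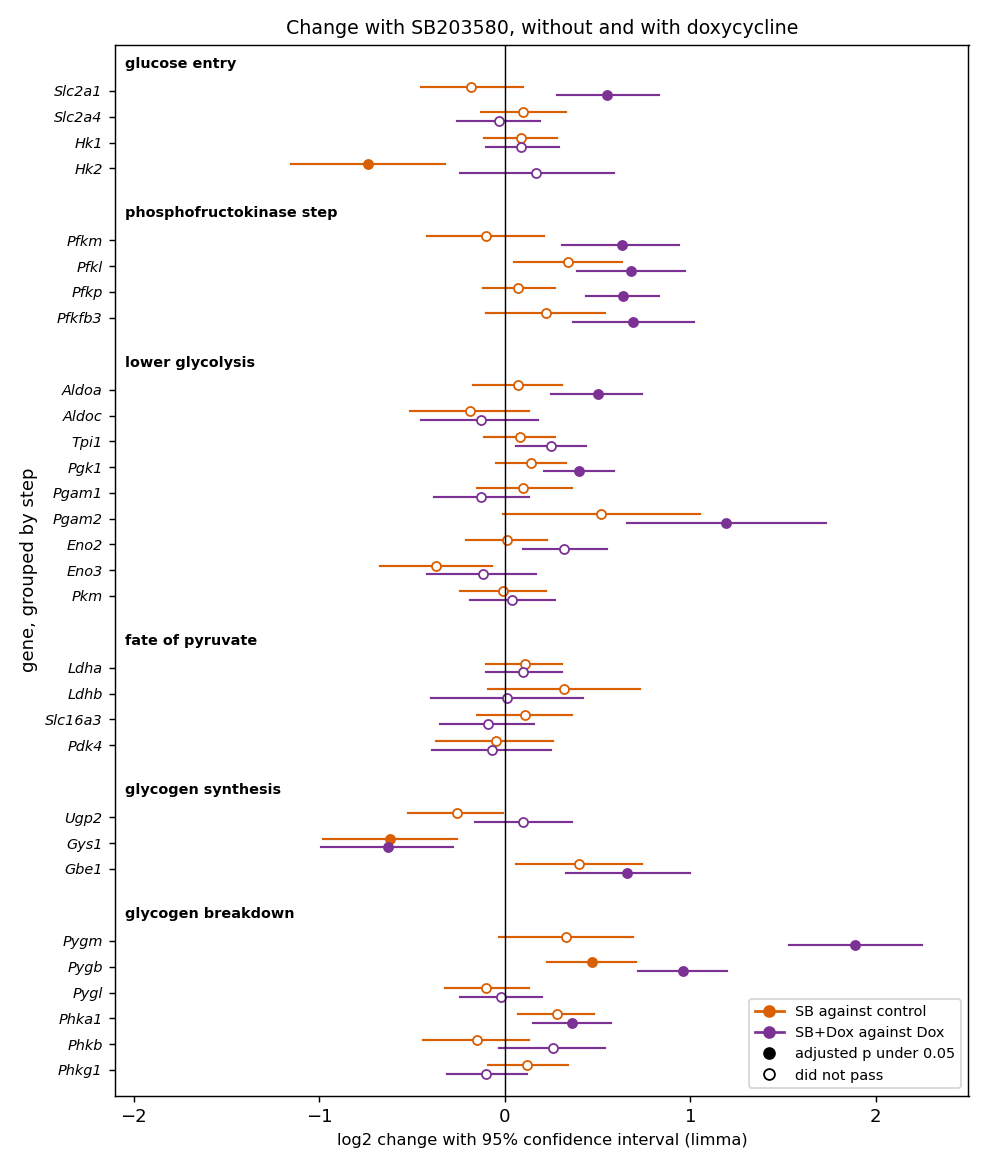
Log2 change with SB203580 (horizontal axis) for the 30 measured genes (vertical axis, grouped by step), without doxycycline (SB against control) and with it (SB+Dox against Dox); lines are 95% confidence intervals and filled points passed the test. With doxycycline 12 genes were higher and Gys1 was lower, and without it 1 was higher (Pygb) and 2 were lower (Hk2 and Gys1).

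The 4 muscle-enriched forms did not share 1 pattern. In Dox against control 2 fell (Pygm and Pgam2), where 4.01% of all genes fell, and Eno3 and Pfkm had changes of 0.10 and -0.24. In SB+Dox against Dox 3 were higher (Pygm, Pgam2 and Pfkm), where 7.19% of all genes were higher. In SB against control 0 of the 4 were called, with changes from -0.37 for Eno3 to 0.52 for Pgam2. The myotube markers had these counts on the same arrays: 3 of 14 (Mymk, Cav3 and Casq2) rose in Dox against control and 0 fell, and 8 of 14 fell in SB against control and 0 rose, of which Myog, Tnnc1, Mymk, Mylpf, Tnnt1 and Ckm moved most (from -2.21 for Myog to -0.96 for Ckm). Of the 14 markers 8 rose in SB+Dox against SB and 0 fell, with a median of 0.79, where 0 of the 4 muscle forms were called and their median was 0.35; Casq2, Tnnc1, Mymk, Myh3, Mylpf and Ckm rose most, from 2.44 for Casq2 to 1.00 for Ckm. Against Dox, SB+Dox had 0 markers higher and 4 lower, where 3.55% of all genes were lower. Of all genes, 1.49% rose and 4.01% fell in Dox against control, and 2.59% rose and 4.06% fell in SB against control. In SB+Dox against SB 4.54% of all genes rose. Casq2, a calcium-binding protein of the sarcoplasmic reticulum, was 2.12-fold higher in Dox than in control (adjusted p = 0.00427), where Pygm was 2.31-fold lower. Of 5 myoblast markers 2 fell in SB against control (Myod1 and Cdh15) and Myf5 rose, while Myf5 fell in Dox against control.

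Most such pairs were listed for SB against control and SB+Dox against SB only; the other comparisons, and the pair of Eno3 and Eno2, were added after the data were seen. Within-array differences between a muscle form and its counterpart remove any scaling of a whole array, and they show unequal change, not relative level. Pygm minus Pygb was 0.86, 0.79 and 0.98 on the control arrays, -0.07, 0.54 and 0.32 on the Dox arrays, 0.45, 0.93 and 0.84 on the SB arrays and 0.97, 0.94 and 1.66 on the SB+Dox arrays. It was lower in Dox than in control by 0.62 without overlap, so the mean fall was larger for Pygm than for Pygb. This difference did not pass the exact test given below (adjusted p = 0.308). Pgam2 minus Pgam1 was -2.41 ± 0.36 in control and -3.22 ± 0.05 in Dox (SD, n = 3), again without overlap. Pfkm minus Pfkl was 1.27 ± 0.06 in SB and 2.07 ± 0.24 in SB+Dox, a shift of 0.80 without overlap, and 1.71 ± 0.42 in control. Pfkm minus Pfkp differed by 0.03 between SB+Dox and SB, with overlap. Slc2a4 minus Slc2a1 shifted by -0.71 in SB+Dox against SB, without overlap. Hk2 minus Hk1, on the brighter Hk1 cluster, was 0.82 lower in SB than in control and 1.16 higher in SB+Dox than in SB, both without overlap. Eno3 minus Eno2 overlapped in all 4 comparisons. In a two-sided exact permutation test 3 arrays against 3 cannot go below p = 0.1, and over the 40 pair comparisons the smallest adjusted p was 0.308, so none passed.

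**Figure D4:**
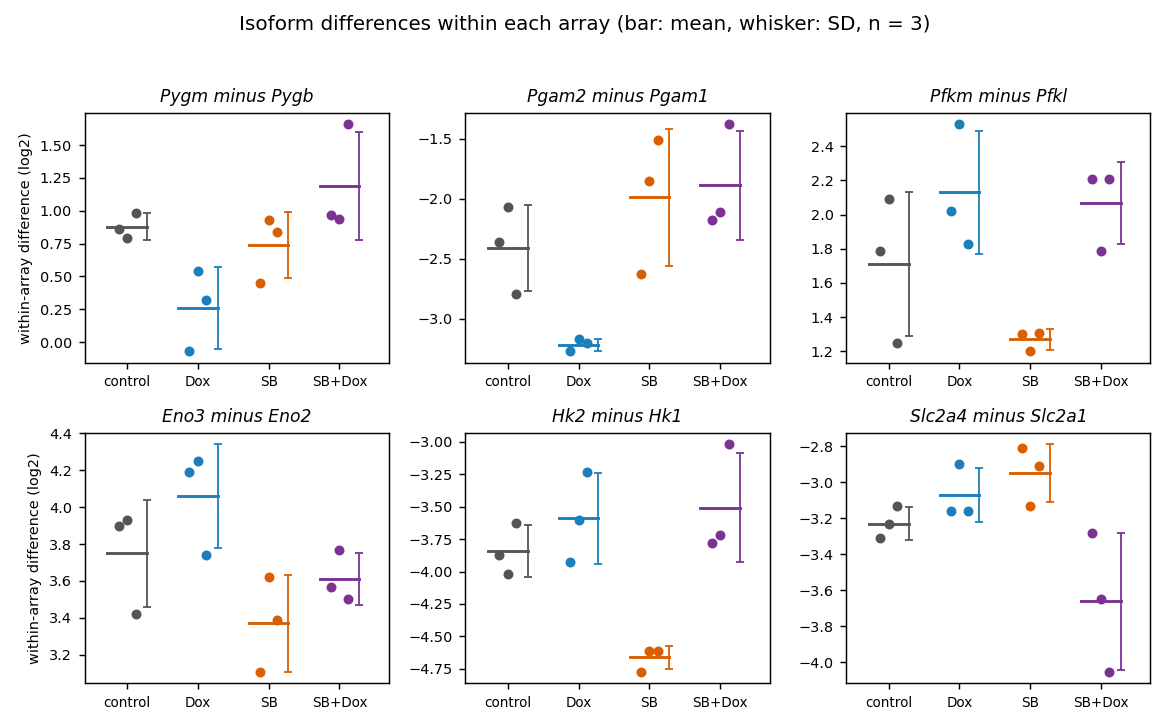
Difference of the log2 signals of 2 genes on the same array (vertical axis, scaled per pair) for 6 pairs in the 4 groups (horizontal axis), with a point per array, a bar at the mean and a whisker of 1 SD (n = 3). Pygm minus Pygb and Pgam2 minus Pgam1 are lowest in Dox, and Hk2 minus Hk1 is lowest in SB.

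Other genes of the pathways were taken from lists by function. Over all genes, 7.19% were higher in SB+Dox against Dox and 5.5% were called in Dox against control. Of 18 measured genes of glycolysis and glucose transport outside the 30, 0 were called in Dox against control. In SB+Dox compared with Dox, 2 of them were higher. The larger of the 2 was Slc16a1, the monocarboxylate transporter MCT1, at 1.77-fold (a log2 change of 0.82, SE 0.13, adjusted p = 0.000611), and it also rose in SB against control by 0.51 (adjusted p = 0.0254). For 21 other glycogen genes the list median in SB+Dox against SB was -0.06, against -0.047 over all genes. Beside shares of 4.54% higher and 2.81% lower over all genes, 0 of the 21 fell and 6 rose. They were Stbd1, a glycogen-binding protein (0.84, adjusted p = 0.00999), Phka2, the liver α subunit of phosphorylase kinase (0.81, 0.0168), Gaa, the lysosomal glucosidase (0.77, 0.00124), Gsk3b, a kinase that inhibits glycogen synthase (0.74, 0.00731), Gyg, the glycogenin primer of glycogen (0.65, 0.00231), and Prkag3, a muscle subunit of AMP-activated kinase (0.65, 0.0115). Prkag3 was also 1 of the 2 called in SB against control, where it fell by 0.78 (adjusted p = 0.00368), and Pgm1, phosphoglucomutase, rose by 0.44 (adjusted p = 0.0166). In that comparison 6.65% of all genes were called.

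Among 13 genes for pyruvate entry to mitochondria, 4 were higher in SB+Dox compared with Dox and 2 were lower in Dox than in control. Over all genes 7.19% were higher in the former comparison and 4.01% lower in the latter. Pcx, pyruvate carboxylase, moved most: it was 2.92-fold higher in SB+Dox compared with Dox (a log2 change of 1.55, SE 0.18, adjusted p = 4.61e-05), fell by 0.70 in Dox against control (adjusted p = 0.0315), and had an interaction of 1.25 (adjusted p = 0.0364). Dld, a subunit of the pyruvate dehydrogenase complex, was the 1 gene of this list to rise in SB+Dox against SB, by 0.59. Pdk1, a kinase of that complex, fell by 0.73 in Dox against control (adjusted p = 0.012). Of 6 pentose phosphate genes 1 was lower in Dox than in control, the transketolase gene Tkt, which fell by 0.75 (adjusted p = 0.000558). Of 15 hypoxia-responsive genes outside glycolysis, 4 fell in SB against control (Egln3, Ero1a, Vegfa and Ddit4) and 0 were called in Dox against control, with list medians of -0.26 and 0.07. Among all genes 4.06% fell in SB against control and 5.5% were called in Dox against control. Vegfa, the vascular growth factor, fell by 0.87 in SB against control (adjusted p = 0.000346) and was 2.05-fold higher in SB+Dox compared with SB (adjusted p = 0.000193). Egln3 fell by 1.67 in SB against control, and Ero1a by 1.19, with control arrays at 7.98, 7.8 and 9.17 for Ero1a. In SB+Dox against SB, 3 of the 15 rose and 1 fell, where 4.54% of all genes rose and 2.81% fell. Ero1a rose most there, by 1.37 (adjusted p = 0.00891). Of the 15 genes 4 fell in SB+Dox against Dox (Egln1, Egln3, Kdm3a and Ddit4) and 1 rose (Mxi1). The shares of all genes there were 3.55% lower and 7.19% higher. The change of Egln3 from control to SB+Dox was -1.31 (adjusted p = 0.000399).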

How the data were processed

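RNA from 12 samples was hybridised to Affymetrix arrays. The deposited values are log2 signals that the authors made with RMA in Affymetrix Expression Console, per the submitters' processing notes; versions and settings are not given in the sources used here. RMA normalises probe signals to a common distribution, so a shift shared by most genes would not show. Of 35557 clusters, 21789 carried 1 symbol and were tested without a filter on dim clusters. Symbols came from the platform annotation and were updated by Entrez identifier (21698 matched).

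A mean per group was fitted to all 12 arrays with limma 3.58.1 in R 4.3.3 (8 residual and 6.56 prior degrees of freedom), and p-values were adjusted by Benjamini-Hochberg within each comparison. The number of arrays limits the precision. The fit was also run on simulated data with independent noise on each array and no pairing of replicates. Its outcome is not given here and lends no support to the calls. Members, gene lists and tests were chosen with earlier results of these data known. Per-array values are given for members called with at least 1.5-fold change and for muscle forms and their counterparts, except Pygl, given by range. Members with adjusted p from 0.05 to 0.10 may be named. Phka1, Pgk1, Ugp2, Aldoa and the dimmer Hk1 cluster were added after their values were seen. Genes of other lists are named when called at 1.5-fold in SB against control or SB+Dox against SB, up to 6 a list, largest first; Slc16a1, Pcx, Pdk1, Tkt, Pgm1, Ddit4, Cav3, Myod1, Cdh15, Egln1, Kdm3a and Mxi1 were named after their values were seen.

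Pairing by replicate number was checked on deviations from group means. Same-numbered SB and SB+Dox arrays correlated at 0.44, 0.19 and 0.49, which met the rule of every correlation over 0.1. The block is given beside that comparison where it changes a call. Of the other 5 group pairs 0 met the rule, and Dox and SB+Dox missed it narrowly, at 0.09, 0.28 and 0.15. The block was fitted over all 4 groups, so its p-values do not rest on the pairing of SB and SB+Dox alone. Alternatives were scaling, filters, clusters, variance model, array weights, the block, fewer groups and leaving out each array.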

Additional observations from a re-analysis of the deposited data

Results flagged for a closer look

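Pygm was flagged because its response to doxycycline differed between cells with and without SB203580 in a direct test. Doxycycline changed it by -1.21 without the inhibitor and by 0.35 with it, an interaction of 1.56 on the log2 scale (SE 0.24, adjusted p = 0.0122 in limma). It was the only one of the 30 measured genes past that threshold. The value stayed between 1.36 and 1.69 over 21 alternatives, and the call held in 20 of them.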

How the results depend on the processing

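Over 22 alternatives (21 for the interaction), 15 of the 31 member calls held in all and 0 changed sign. Testing every cluster of the table, which adds clusters without a single symbol, gave 4 member calls in Dox against control, 0 in SB against control, 1 in SB+Dox against control and 0 for the interaction, where Pygm had adjusted p = 0.098. The calls lost in Dox against control were Pgam2, Aldoa and Pfkfb3. That setting also lost Gys1 and Phka1 in SB+Dox against Dox and Ugp2 in SB+Dox against SB. Array weights gave 7 calls in SB against control, 9 in SB+Dox against SB, 6 in SB+Dox against control and 4 for the interaction. For SB+Dox against SB the count was 8 after removing clusters dimmer than the 25th percentile, the same below the 50th, and with an eBayes trend and robust fit, and 3 with only the 2 groups compared. In SB+Dox against control it was 5 with clusters under the 50th percentile left out. The interaction count was 2 with each array centred on its median or without clusters under the 25th percentile, 3 without those under the 50th percentile or with trend and robust, and 4 with the replicate block, which added Hk2, Slc2a1 and Pfkp. The block changed 4 other calls, Pgam1 and Phkb in SB+Dox against SB, Eno2 in SB+Dox against Dox (adjusted p = 0.0218) and Hk2 in SB+Dox against control (0.0318), all gained. Leaving out each array gave 4 to 7 calls in Dox against control, 1 to 3 in SB against control, 3 to 9 in SB+Dox against SB, 9 to 13 in SB+Dox against Dox, 1 to 3 in SB+Dox against control and 1 to 2 for the interaction. The cause of these shifts was not tested beyond the change in the genes tested or the samples used. No background signal was available, so folds of genes near or under the array median may be understated.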

Other observations

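Gapdh, glyceraldehyde 3-phosphate dehydrogenase and a common reference gene, was read by 25 clusters that also carry other gene symbols. Their mean levels lay between 11.3 and 12.6. Over these clusters the change in Dox against control ran from -0.02 to 0.00, where Aldoa, an aldolase of the same pathway, fell by 0.44. In SB+Dox against Dox it ran from 0.11 to 0.16. With every cluster of the table tested, 0 of the 25 passed in limma in any of the 6 comparisons, and the smallest adjusted p was 0.439.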
